A study of Mus musculus with 57 samples.

Results

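Stmn1, the gene for stathmin, was followed through caerulein pancreatitis in the mouse, as 1 target of the 9780 in the deposited expression tables and over all 57 tissue regions. The gene was chosen by the course of its own signal in these regions, so its levels and its differences between groups are given as a description, with no test. The regions, of 650 by 650 µm except for a larger one at 72 hours, were taken from formalin-fixed, paraffin-embedded sections of pancreas (5 µm). They were profiled with the GeoMx Whole Transcriptome Atlas, in which probes hybridised to RNA carry DNA barcodes that are released by light from a chosen region and sequenced. All mice were of the C57BL/6 strain, and the injected mice were 8 to 9 weeks old. Caerulein, a peptide that acts on cholecystokinin receptors and overstimulates the acinar cells, was injected intraperitoneally every hour for 8 hours on 2 consecutive days. Control pancreas gave 7 regions. After caerulein, 3, 6, 6, 5 and 4 regions were taken at 3, 12, 24, 48 and 72 hours, and 6, 6, 7 and 7 at 5, 7, 14 and 30 days. The sources used here give neither the dose, nor what the controls received, nor when the clock of the time points started. The tissue was set in 2 arrays of 12 cores, each with every time point, and which animal a region came from is not labelled.

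Stathmin is a small cytosolic phosphoprotein that binds pairs of tubulin subunits and so favours the disassembly of microtubules. It is phosphorylated when cells enter mitosis, which releases the tubulin and allows the spindle to form, and it is abundant in dividing cells and in the developing nervous system. Acinar cells of the adult pancreas divide rarely, and after caerulein they lose their enzyme stores, take on features of duct cells and re-enter the cell cycle as the tissue regenerates.

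Per the files, Stmn1 is gene ID 16765, at chr4:134468320-134473843 (GRCm38.p6). Its single probe of 35 bases lies within the gene, at chr4:134472838-134472872, and is annotated to Stmn1 alone. Which exon the probe covers was not analysed here. Of the other stathmins, Stmn3 was in the tables, with a probe at chr2:181309156-181309190, while Stmn2 and Stmn4 were not analysed here.

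The regions held 1036609 to 5035488 target counts (median 2036021), and the negative probes, which match no mouse transcript and give the background, averaged 42.1 to 186 counts. Between 480 and 2679 targets per region exceeded 2 times that background. The number was 1760 ± 486 at 24 hours (SD, n = 6) and 645 ± 103 in control (SD, n = 7). Stmn1 gave 544 counts in its highest region, at 24 hours (exact 95% Poisson interval 499 to 592), and 47 in its lowest, a control region (34.5 to 62.5). Such intervals cover counting error only. Stmn1 exceeded 2 times the background in 15 regions, namely 6 of 6 each at 12 and 24 hours, 1 of 5 at 48 hours and 2 of 4 at 72 hours, and in none of the others. It was therefore among the 2688 targets analysed across groups only through the groups in which it was high.

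The level of Stmn1 is given first as the deposited Q3-normalised signal, in which each region is scaled to the same 75th percentile over all targets. In control the 7 regions ran from 75.6 to 118 with a median of 104. At 3 hours the values were 132 on array 1 and 101 and 120.0 on array 2, so that 2 of 3 regions lay above every control region. At 12 hours the signal ran from 145 to 181 with a median of 167. All 6 regions at 12 hours stood above the highest control region. At 24 hours the regions of array 1 had 194, 215 and 226, and those of array 2 had 293, 251 and 349. These 6 were the highest values of the series, and the regions of array 2 were all above those of array 1. At 48 hours the values were 148, 127 and 149 on array 1 and 174 and 164 on array 2, and at 72 hours 174 on array 1 and 191, 137 and 156 on array 2. Every region at both of these times lay above the control range, and every one lay below the lowest region at 24 hours.

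From 5 days the ranges overlapped the control range. The signal ran from 108 to 145 at 5 days (median 125), with 3 of 6 regions above the highest control region, and from 107 to 131 at 7 days (median 116), with 2 of 6 above it. At 14 days it ran from 76.5 to 119 (median 104), with 1 of 7 above the control maximum, and at 30 days from 96.7 to 109 (median 104), with none. The regions at 14 and 30 days were thus spread over nearly the same values as the control regions.

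**Figure D1:**
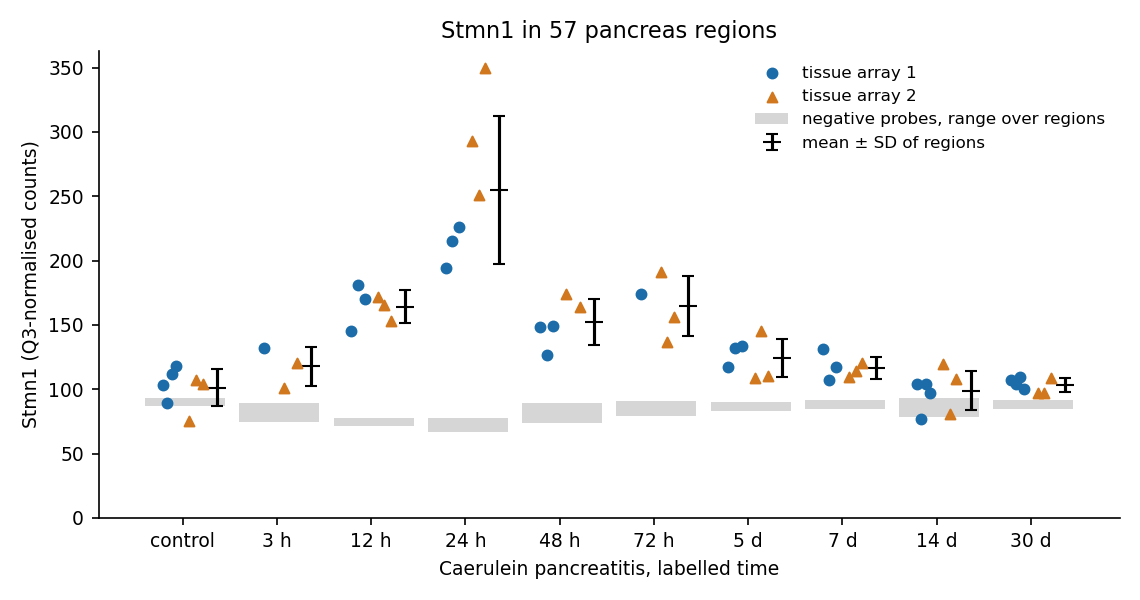
Q3-normalised Stmn1 signal in each of the 57 regions by group (circles, array 1; triangles, array 2; bars, mean ± SD over regions), with the range of the negative probes in grey. The 24-hour regions lie between 194 and 349, above all others, and the control regions between 75.6 and 118, close to the grey range of 66.4 to 93.2.

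Ordered by mean signal, the groups ran 24 hours (255 ± 57.5, SD, n = 6), 72 hours (164 ± 23.3, n = 4), 12 hours (164 ± 13.2, n = 6), 48 hours (153 ± 17.97, n = 5), 5 days (124 ± 14.8, n = 6), 3 hours (118 ± 15.4, n = 3), 7 days (117 ± 8.71, n = 6), 30 days (103 ± 5.45, n = 7), control (101 ± 14.3, n = 7) and 14 days (98.7 ± 15.2, n = 7). The step from 24 hours to 72 hours was 90.5, larger than the pooled SD of the pair (43.8), and their ranges did not overlap. The steps from 48 hours to 5 days (28.1 against a pooled SD of 16.5) and from 7 days to 30 days (13.3 against 7.27) also exceeded the spread, but those ranges overlapped. All other neighbours in the order differed by less than their pooled SD.

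The control signal was barely above the background. As a ratio to the negative probes of the same region, Stmn1 averaged 3.47 ± 0.925 at 24 hours (SD, n = 6, range 2.50 to 4.79) and 1.13 ± 0.160 in control (n = 7). The ratio was 2.17 ± 0.117 at 12 hours, 1.82 at 48 hours and 1.92 at 72 hours. A share of the signal that is background makes a fold change between groups smaller than that of the transcript itself.

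For comparison with other genes, counts of the regions of one group on one array were added into 20 sums of 1 to 4 regions, and edgeR was run on the sums after TMM scaling, with terms for group and array. On this scale the log2 difference of Stmn1 from control (± SE) was 0.08 ± 0.14, 0.51 ± 0.12, 1.17 ± 0.12, 0.57 ± 0.12 and 0.61 ± 0.13 at 3, 12, 24, 48 and 72 hours. It was 0.26 ± 0.12, 0.16 ± 0.12, -0.05 ± 0.12 and 0.01 ± 0.13 at 5, 7, 14 and 30 days. The 24-hour value corresponds to a fold of 2.26 and the values at 12, 48 and 72 hours to folds of 1.43, 1.48 and 1.53. The arrays differed most at 24 hours, where the difference was 0.87 on array 1 and 1.40 on array 2. At 12 hours they gave 0.50 and 0.52, and at 72 hours 0.63 and 0.62, although array 1 held a single region at 72 hours. At 3 hours, where array 1 also held a single region, the values were 0.17 and 0.06.

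The place of Stmn1 among all targets moved with time. A larger difference from control was found for 331, 63, 44 and 64 of the 2688 targets at 12, 24, 48 and 72 hours, and for 161 at 5 days. The middle 50% of targets lay between -0.27 and 0.24 at 24 hours. The negative probes fell by 0.42 on the same scale at 12 hours and by 0.44 at 24 hours, against 0.11 at 48 hours and 0.17 at 72 hours, so that targets near background had lower scaled values at 12 and 24 hours. A lower or higher value of a tissue region can come from fewer or more cells of a type or from less or more RNA per cell, which cannot be told apart here.

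The 24-hour regions differed in their make-up as well as in Stmn1. In the summed Q3 signal of 15 acinar markers they ran from 27537 to 105957, against 275330 to 469667 in control, so the tissue held the acinar transcripts that define pancreas. Of the 14 acinar markers tested, 9 were lower and none higher at 24 hours, among them Pnlip, which encodes pancreatic lipase (log2 difference -5.57 ± 0.72), and the elastase gene Cela2a (-4.36). Over all targets 21.8% were called lower and 20.8% higher at 24 hours, at an adjusted p under 0.05 in edgeR's quasi-likelihood test with Benjamini-Hochberg adjustment over the 2688 targets. The summed signal of 10 duct and metaplasia markers was 7738 to 15312 at 24 hours and 1403 to 1640 in control, with 7 of 8 tested markers higher, including Clu, for the secreted chaperone clusterin (4.18 ± 0.53), and Spp1, for osteopontin (2.73). The duct sums were higher earlier, with medians of 12590 at 3 hours and 17665 at 12 hours against 9400 at 24 hours. For 12 fibroblast and stellate markers the sums were 3640 to 8622 at 24 hours and 1303 to 1411 in control, with 7 of 8 tested higher, led by the collagen genes Col1a1 (3.44 ± 0.39) and Col3a1 (2.97). For 12 macrophage markers they were 1874 to 3744 at 24 hours and 1262 to 1358 in control, with 7 of 11 tested higher, among them the complement gene C1qb (1.38 ± 0.18) and the protease gene Ctss (1.31). In control no fibroblast or macrophage marker exceeded 2 times the background in most regions, against 7 of each list at 24 hours. For duct markers these numbers were 2 and 8. Higher calls in these lists are therefore not independent of the filter. The medians of the fibroblast and macrophage sums were highest at 24 hours, unlike those of the duct markers. Without the 24-hour sum of array 2, 4 macrophage markers were called higher, and without that of array 1, 9.

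The region with the most Stmn1 signal, 349, had 33648 in acinar markers, 13209 in duct markers, 7892 in fibroblast markers and 2285 in macrophage markers. The region with the least, 194, had 90680, 7738, 4162 and 1921 for the same lists. Except for the lowest duct sum, 7738, the extremes of the lists lay elsewhere. The region with a Stmn1 signal of 293 had the lowest acinar sum, 27537, and the highest duct, fibroblast and macrophage sums (15312, 8622 and 3744). The 3 regions of array 2, higher in Stmn1, had 27537, 60204 and 33648 in acinar markers, below the 87598 to 105957 of array 1. Their duct marker sums were 9781 to 15312, against 7738 to 9018 on array 1. The part of these cell types in the Stmn1 signal was not tested.

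Markers of other cells moved less or not upward at 24 hours. Islet markers summed to 805 to 1755 at 24 hours and 1162 to 2019 in control, with 2 of 6 tested lower (Pcsk1 -0.84 and Scg5 -0.50, but -0.25 and 0.09, neither called, with scaling to total counts) and 0 to 2 without single sums. Neutrophil markers summed to 520 to 613 at 24 hours and 613 to 680 in control, with 2 of 3 tested lower (Il1r2 -0.41, Retnlg -0.35, but 0.20 and 0.24 with scaling to total counts) beside the fall of the negative probes by 0.44, and 0 to 2 without single sums. Neural and glial markers, whose cells also use stathmins, summed to 574 to 667 at 24 hours and 674 to 768 in control. The 6 lymphocyte markers in the tables summed to 529 to 567 at 24 hours and 538 to 730 in control, and the 6 endothelial markers to 670 to 757 at 24 hours and 665 to 734 in control, with no member of either list tested. Every marker had a count above 0 in all regions, and since a target at background carries the signal of the negative probes, sums near 84 per marker hold little above it. The negative probes averaged 74.3 at 24 hours and 89.3 in control on this scale, so sums of markers near background carry that fall.

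Stmn3, a stathmin best known from neurons, did not follow Stmn1. Its Q3 signal was 124 ± 14.3 at 12 hours (SD, n = 6), 135 ± 13.4 at 24 hours (n = 6) and 146 ± 10.5 in control (n = 7). It was called lower at 12 hours, as 1 of the 21.5% of targets called lower there (-0.46 ± 0.13, edgeR adjusted p = 0.0125), but was 0.12 with scaling to total counts and -0.04 with scaling to the negative probes. At 24 hours it missed the threshold (-0.33 ± 0.13, edgeR adjusted p = 0.0524). There too the sign turned, with 0.28 for Stmn3 with scaling to total counts and 0.12 with scaling to the negative probes. Between 48 and 12 hours it was higher at 48 hours (0.49 ± 0.14, edgeR adjusted p = 0.0211), with 8.15% of targets called higher in that comparison and a shift of the negative probes of 0.31. For the same pair of times Stmn1 differed by 0.05 ± 0.12.

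Stathmin acts on tubulin and is controlled by kinases and phosphatases. Of 20 tubulin genes 7 were measured and 5 tested. Tuba1a, an alpha-tubulin, was the member called higher, at 12 hours (1.36 ± 0.30, edgeR adjusted p = 0.00264, with 21.4% of targets called higher) and at 24 hours (1.32 ± 0.30, edgeR adjusted p = 0.00313), from a control level of 0.52 times the negative probes. At that control level Tuba1a could not pass the filter through control regions alone, so its higher calls are not independent of the filter. Without single sums 0 to 1 tubulins were called higher at 12 hours and 0 to 3 at 24 hours. Tuba1b and Tubb5, which encode abundant tubulins of dividing cells, differed by 0.25 and 0.28 at 24 hours and were not called. Of 22 other microtubule regulators measured, 8 were tested, and 1, 3 and 2 were called higher at 3, 12 and 24 hours, where 7.11%, 21.4% and 20.8% of all targets were. These were Dynll1, a dynein light chain (1.10, 0.59 and 0.85 at those times), at 12 and 24 hours Tpt1, the translationally controlled tumour protein (1.25 and 1.00), and at 12 hours Dctn2, a dynactin subunit (0.23). Map2, a neuronal microtubule-binding protein, was called lower at both times (-0.43 and -0.42), beside the fall of the negative probes, and was 0.14 at 12 hours with scaling to total counts. Without single sums, 0 to 2 members were higher at 3 hours, 0 to 3 at 12 hours and 0 to 2 at 24 hours.

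Of 19 genes in the tables that act on stathmin's phosphorylation or bind it, 8 were tested. None was called higher at 3 hours by edgeR (2 at an unadjusted p under 0.05, and 0 by DESeq2), 4 were at 12 hours and 5 at 24 hours, where 21.4% and 20.8% of all targets were. Ppp1ca and Ppp1cb, catalytic subunits of protein phosphatase 1, were higher by 0.53 and 0.40 at 24 hours. Ppp2cb, a catalytic subunit of protein phosphatase 2A, was higher by 0.39, and Stat3, a transcription factor that binds stathmin, by 0.39. Leaving out 1 sum left 0 to 4 calls at either time.

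Histone genes were frequent among the 10 targets whose course over the 20 sums was most like that of Stmn1. After removing array means, the highest Pearson correlations were those of H2ac10 (0.962), Apoe (0.934), H3c1 (0.929), Col6a2 (0.921), H2bc11 (0.911), H2bc8 (0.901), H3f3a (0.894), H4c11 (0.888), Selenop (0.887) and H2ac18 (0.887). The correlations are a description over 20 sums that share tissue, arrays and depth, and among all 2687 other targets their median was -0.01 with a 5th to 95th percentile range of -0.72 to 0.72. Of these 10, 6 are replication-dependent histone genes, whose transcripts are made mainly while DNA is copied and which end without a poly(A) tail. Apoe encodes apolipoprotein E (log2 difference at 24 hours 3.84 ± 0.43), Col6a2 a chain of collagen VI (1.03), Selenop the selenium carrier selenoprotein P (1.18) and H3f3a a histone H3 variant made outside DNA replication (1.07). With the correlation taken over the 57 regions instead, 6 of the 10 were again among the first 10. Over the 20 sums, 50 targets had a correlation above 0.8, and 8 of them were replication-dependent histone genes.

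In all, 8 replication-dependent histone targets were tested of 13 in the tables. H2bc8 lay below 2 times the background in control, so it passed the filter only through groups after caerulein. A higher call of such a member is not independent of the filter. At 3, 12 and 24 hours 3, 7 and 8 of them were called higher, where 7.11%, 21.4% and 20.8% of all targets were. At 48 and 72 hours 4 and 7 were higher, where 0.632% and 0.67% of all targets were, and at 5 days 3, where 0.298% were. None was called at 7 days (0.0372% of targets called higher), 14 days (0.0%) or 30 days (0.0372%) by edgeR, while 5, 1 and 0 had an unadjusted p under 0.05 at those times and DESeq2 called 1, 0 and 0. Their median log2 difference was 1.48 at 24 hours, 0.86 at 48 hours and 1.29 at 72 hours, and between 48 and 12 hours no member was called by edgeR or DESeq2 or had an unadjusted p under 0.05 for a higher value. With each of the 4 sums of a comparison left out in turn, an alternative added after the data had been seen, 1 to 3, 6 to 7 and 7 to 8 were higher at 3, 12 and 24 hours. By the same procedure 1 to 3 and 3 to 6 were higher at 48 and 72 hours, and 0 to 1 at 5 days. The lowest count at 3 hours came without the 3-hour sum of array 1, and the lowest at 48 hours, 72 hours and 5 days without the control sum of array 2.

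The members with the largest differences at 24 hours were H4c17 (2.59 ± 0.24, edgeR adjusted p = 2.18e-06), H3c1 (2.25 ± 0.23, edgeR adjusted p = 4.92e-06) and H2bc8 (1.73 ± 0.18, edgeR adjusted p = 4.74e-06). Histone genes are near copies of one another, and probes such as those of H2ac10, annotated to 11 genes, H2bc11, to 6, and H3c1, to 4, cannot separate them. H2bc8, which encodes a histone H2B, has a probe annotated to 1 gene. Its Q3 signal was 452 ± 96.4 at 24 hours (SD, n = 6) and 124 ± 12.0 in control (n = 7). Since H2bc8 is the histone gene among these 10 whose probe is annotated to 1 gene, its promoter is shown, from 250 bases before to 50 after the start, at chr13:23571150-23571449 on the + strand (RefSeq, GRCm38.p6), with matches to 2 searched motifs in capitals.
H2bc8 promoter: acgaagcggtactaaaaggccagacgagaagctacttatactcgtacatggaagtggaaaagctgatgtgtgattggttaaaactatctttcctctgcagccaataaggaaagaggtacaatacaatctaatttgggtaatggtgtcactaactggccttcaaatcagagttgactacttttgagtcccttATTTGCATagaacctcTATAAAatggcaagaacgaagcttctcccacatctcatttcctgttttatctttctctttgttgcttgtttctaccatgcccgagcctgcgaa
The first match, ATTTGCAT at -59 from the start, is the octamer, known from H2B promoters, and 1.74% of 32851 promoters of this length hold it on either strand. The second, TATAAA at -43, is the TATA box, held by 13.6%. The motifs do not overlap, and a match is a description and no evidence of binding.

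**Figure D2:**
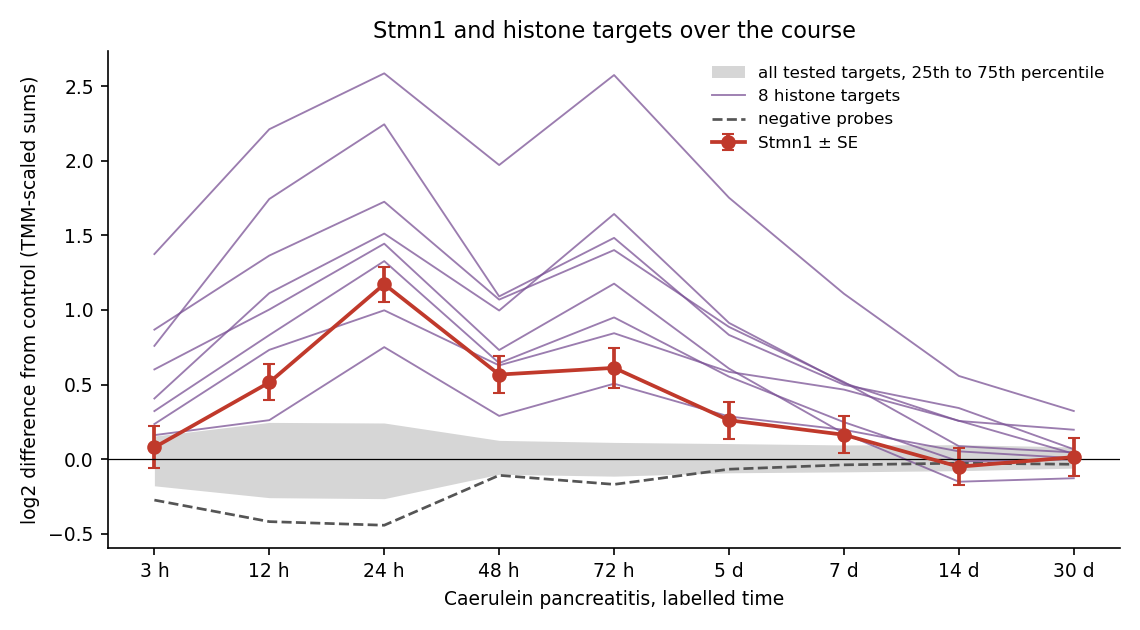
Log2 difference from control by time for Stmn1 (± SE), for 8 replication-dependent histone targets and for the negative probes (dashed), with the 25th to 75th percentile of all 2688 tested targets as a band. Stmn1 (1.17) and the histone median (1.48) are highest at 24 hours, and the histone median is 0.86 at 48 hours and 1.29 at 72 hours.

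Genes of the cell division machinery gave little signal in the same regions. Of 101 genes for DNA replication and mitosis, 40 were in the tables and 8 could be tested: Mcm7, Pcna, Rfc2, Rfc5 and Lig1 for DNA copying, and Ccnb1, Bub3 and Cenpa for mitosis. Over the 40, the median ratio to the negative probes was 1.55 at 24 hours and 1.31 in control, and the group mean exceeded 2 for 3 genes at 24 hours and 1 in control. Mcm7, a subunit of the helicase that opens DNA for copying, was called higher at 24 hours (0.27 ± 0.10, edgeR adjusted p = 0.0321, 0.33 on array 1 and 0.22 on array 2). Like Stmn1, Mcm7 was tested only through the groups in which it was high, since it exceeded 2 times the background in 3 regions at 24 hours and 1 at 12 hours and in none elsewhere. Its Q3 signal was 150 ± 12.6 at 24 hours (SD, n = 6) and 112 ± 9.11 in control (n = 7). The call was lost without any 1 of the 4 sums, and with scaling to the 75th percentile (0.20, edgeR adjusted p = 0.112). It was the single gene of the 8 called higher against control at any time. At 3, 12, 48 and 72 hours and at 5, 7, 14 and 30 days 0 of 8 were called higher by edgeR, 0 had an unadjusted p under 0.05 in that direction and DESeq2 called 0. The count depended on the scaling, which moved the median of all targets at 24 hours by 0.59 with total counts and by 0.44 with the negative probes. With either of these scalings 6 of 8 were called higher at 24 hours, where over all targets 2047 and 1724 were, and with total counts 7 of 8 at 48 and at 72 hours, where 1995 and 1499 of the 2688 targets were. These counts therefore moved with those of all targets.

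Lig1, the DNA ligase that joins newly copied fragments, was called lower at 12 hours (-0.43) and 24 hours (-0.41, edgeR adjusted p = 0.0332). Rfc5, a subunit of the clamp loader, was called lower at 24 hours (-0.31, edgeR adjusted p = 0.0452, but 0.29 with scaling to total counts), and Ccnb1, cyclin B1, at 12 hours (-0.33). The negative probes stood at -0.42 and -0.44 at these times, and with scaling to total counts Lig1 and Ccnb1 stood at 0.14 and 0.24 at 12 hours. Between 48 and 12 hours Ccnb1 was higher at 48 hours (0.31 ± 0.09, edgeR adjusted p = 0.0306, where the negative probes differed by 0.31), and its probe also matches a pseudogene. That call was lost in 3 of the 4 fits without 1 sum. Pcna, the sliding clamp of DNA copying, differed by 0.04 ± 0.12 at 24 hours (edgeR adjusted p = 0.7998), and its ratio to the negative probes was highest at 12 hours (1.86, against 1.26 in control). At 24 hours Pcna stood at 0.64 with scaling to total counts and at 0.50 with scaling to the negative probes. The median of all targets stood at 0.59 and 0.44 under these scalings.

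Levels of genes often read as marks of division lay close to background. Mki67, whose protein coats mitotic chromosomes, had a Q3 signal of 131 ± 16.8 at 24 hours (SD, n = 6) and 116 ± 12.6 in control (n = 7), and was not tested. Cdk1, the kinase that drives mitosis and phosphorylates stathmin, had 96.0 ± 13.2 at 24 hours and 104 ± 8.62 in control. The helicase subunits Mcm2, Mcm3, Mcm5 and Mcm6 had 113 ± 11.8, 120 ± 12.3, 103 ± 11.9 and 108 ± 12.0 at 24 hours, and 121 ± 8.56, 126 ± 10.9, 110 ± 7.93 and 105 ± 16.3 in control. Each of these 24-hour differences was smaller than the SD over the 24-hour regions. On the same scale the negative probes averaged 74.3 at 24 hours, 86.1 at 72 hours and 89.3 in control. Levels near background carry that shift, so these Q3 differences do not show whether the signal above background was flat or lower. At 72 hours, however, Mki67 stood at 142 ± 11.1 (n = 4), above control by more than the SD of either group, and at 5 days at 134 ± 17.3 (n = 6). Mcm4 and Top2a were not analysed here. Correlations with Stmn1 over the 20 sums were 0.594 for Mcm7, 0.215 for Pcna, -0.387 for Ccnb1 and -0.761 for Lig1, compared with 0.847 to 0.962 for the 8 histone targets.

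**Figure D3:**
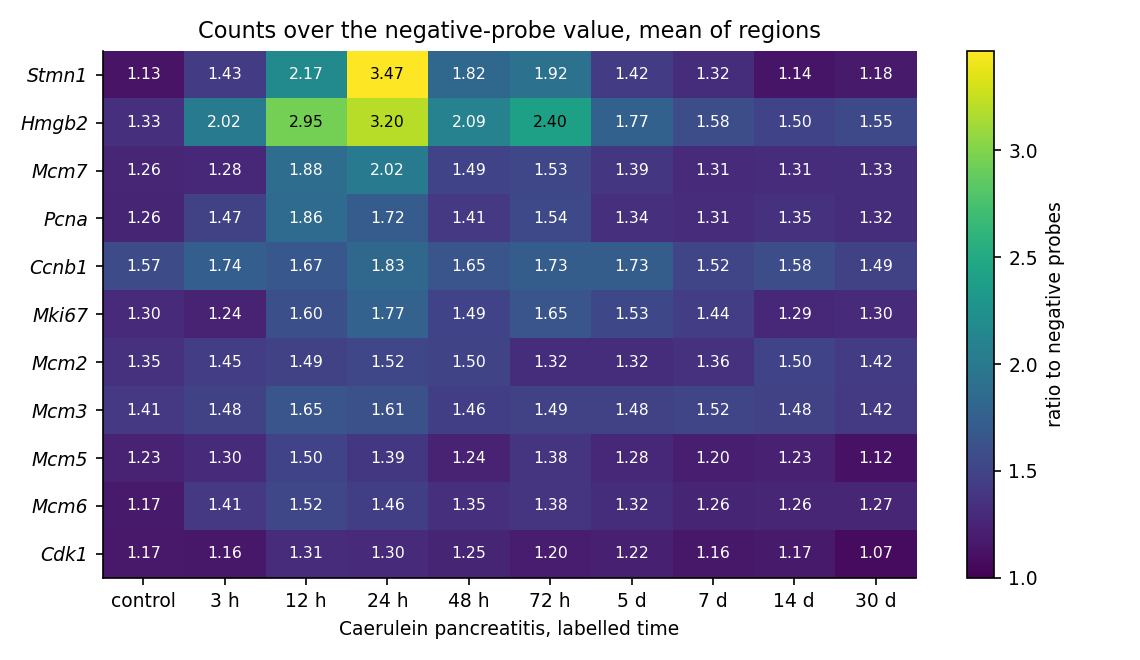
Mean ratio of Q3 signal to the negative probes for 11 genes (rows) in the 10 groups (columns, control first and then time after caerulein). Stmn1 reaches 3.47 at 24 hours against 1.13 in control, Mcm7 reaches 2.02 at 24 hours against 1.26 in control, and Pcna 1.86 at 12 hours against 1.26 in control.

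Of 24 genes measured for abundant nuclear proteins of dividing cells, 18 were tested, and 5, 9 and 11 were called higher at 3, 12 and 24 hours, 0 at 48 hours and 1 at 72 hours, with 1 lower at 12 hours. Of all targets 7.11%, 21.4%, 20.8%, 0.632% and 0.67% were called higher at these 5 times, so most calls fell at the times when most targets were called. At 48 hours 4 had an unadjusted p under 0.05 in edgeR and DESeq2 called 3 higher. At 24 hours the called members included Ptma, for prothymosin alpha (1.88 ± 0.31, edgeR adjusted p = 0.000244), Npm1, for nucleophosmin (1.03 ± 0.23, edgeR adjusted p = 0.00285), and the chromatin proteins Hmgb1 (0.89 ± 0.13, edgeR adjusted p = 0.000146) and Hmgb2 (0.83 ± 0.12, edgeR adjusted p = 7.87e-05). Hmga1, another chromatin protein, led at 3 hours (1.90 ± 0.17, edgeR adjusted p = 1.74e-06), when Stmn1 differed by 0.08. Hmgb2 was the member called at 72 hours (0.74 ± 0.13, edgeR adjusted p = 0.00389). Its Q3 signal was 236 ± 30.4 at 24 hours (SD, n = 6) and 119 ± 9.84 in control (n = 7), and its correlation with Stmn1 over the sums was 0.873. In control Hmgb2 lay below 2 times the background, so it passed the filter only through groups after caerulein. The probes of Hmgb1, Hmgb2 and Hmga1 are annotated to several genes. Without single sums 1 to 8 members were higher at 3 hours, 6 to 11 at 12 hours, 5 to 11 at 24 hours and 0 to 3 at 72 hours. Between 48 and 12 hours 3 were lower at 48 hours, where 10.4% of targets were called lower (Hmga1 -1.27, Ptma -0.93, Hmgb1 -0.43). In the same comparison 1 was higher, where 8.15% of targets were (Hmga2 0.34, beside a difference of the negative probes of 0.31).

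Some genes that hold back the cell cycle were called higher at the early times. Of 15 CDK inhibitors and p53 targets measured, 7 were tested, with 2, 4, 4, 1 and 1 called higher at 3, 12, 24, 48 and 72 hours, where 7.11%, 21.4%, 20.8%, 0.632% and 0.67% of all targets were. Without single sums 2 were higher at 3 hours, 2 to 4 at 12 hours, 1 to 4 at 24 hours and 0 to 1 at both 48 and 72 hours, with the lowest count at 24 hours without the 24-hour sum of array 2. At each later time none was called by edgeR, 1 had an unadjusted p under 0.05, and DESeq2 called 0 or 1. Cdkn1a, for the CDK inhibitor p21, had a Q3 signal of 251 ± 45.2 at 24 hours (SD, n = 6) and 131 ± 13.9 in control (n = 7). In control Cdkn1a lay below 2 times the background, so it too passed the filter only through groups after caerulein. It differed from control by 0.90 ± 0.17 at 3 hours, 1.03 ± 0.16 at 12 hours and 0.75 ± 0.16 at 24 hours (edgeR adjusted p = 0.00189, 0.000292 and 0.00238). Btg2, an antiproliferative p53 target, was highest at 3 hours (1.27) and was 1.05 at 12 hours and 0.85 at 24 hours. Gadd45b, a stress-induced gene, was the member called at 48 hours (0.61) and 72 hours (0.49). Of 14 G1 cyclin and E2F genes measured, 4 were tested and none was called higher at any time by edgeR, by DESeq2 or at an unadjusted p under 0.05, while Lin9, of the complex that controls mitotic genes, was lower at 12 hours (-0.31) and 24 hours (-0.38), but at 0.27 and 0.22 with scaling to total counts.

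Nuclei were counted by the authors in each region. Control regions held 585 to 1191 nuclei (942 ± 242, SD, n = 7). The means ± SD were 1283 ± 363, 1512 ± 123, 1356 ± 289, 1626 ± 263 and 1221 ± 222 nuclei at 3, 12, 24, 48 and 72 hours (n = 3, 6, 6, 5 and 4). They were 1278 ± 150, 1263 ± 109, 1167 ± 102 and 1095 ± 220 at 5, 7, 14 and 30 days (n = 6, 6, 7 and 7). The highest mean nuclei count thus fell at 48 hours, and the highest Stmn1 signal at 24 hours. In nuclei, however, 48 hours exceeded 12 hours by 114, less than the pooled SD of 205, and the ranges overlapped. No neighbours in the order of mean nuclei differed by more than their pooled SD. In 2-sided exact permutation tests over regions, adjusted by Benjamini-Hochberg over 9 times, nuclei were higher than in control at 12 hours (by 570, adjusted p = 0.0105), 24 hours (by 414, adjusted p = 0.0357), 48 hours (by 685, adjusted p = 0.0184), 5 days (by 336, adjusted p = 0.0184) and 7 days (by 321, adjusted p = 0.0184). The differences at 3 hours (341, exact adjusted p = 0.131), 72 hours (279, exact adjusted p = 0.131), 14 days (225, exact adjusted p = 0.0664) and 30 days (154, exact adjusted p = 0.242) did not pass. Regions of one tissue sample share their source, so these p-values are too small. The tests had no term for array. Nuclei had been set beside Stmn1 when the gene was chosen, so the tests lend its course no support. The 24-hour call was lost in 8 of the 13 tests that left out 1 region, namely control replicate 1, 2, 3 or 5 or 24-hour replicate 2, 4, 5 or 6 (exact adjusted p up to 0.0664). A call was gained at 72 hours without replicate 1 (367, exact adjusted p = 0.0297), and at 14 days without control replicate 4 or 7 (262 and 267, exact adjusted p = 0.0385 and 0.0315). Replicate 1 at 72 hours covered 509054 µm², against 421366 µm² for every other region, and nuclei were not corrected for area.

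**Figure D4:**
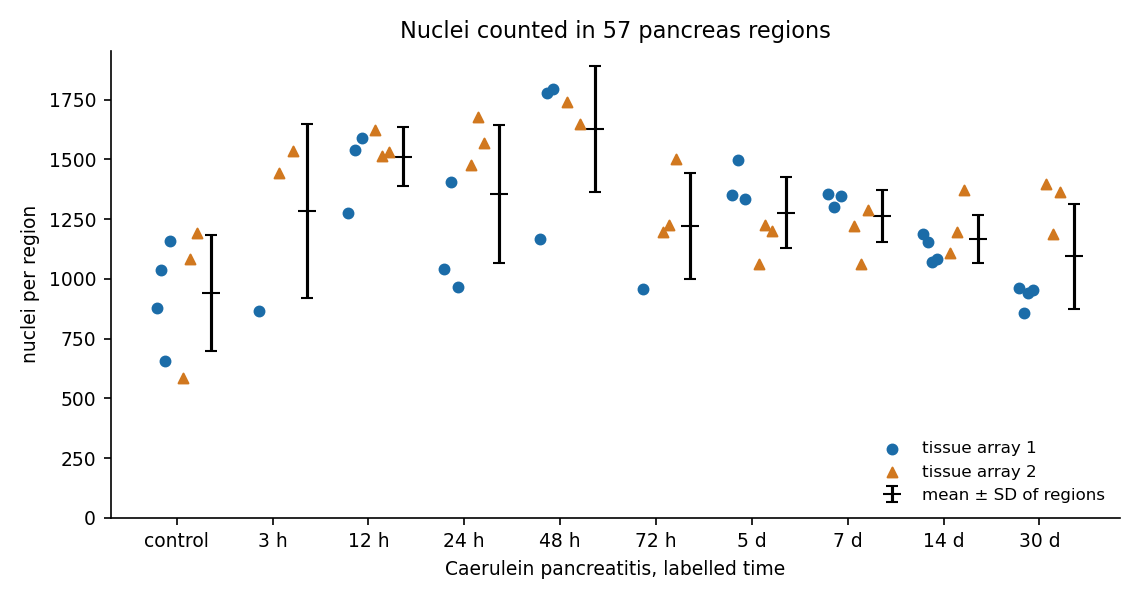
Nuclei per region by group (circles, array 1; triangles, array 2; bars, mean ± SD over regions). Control regions lie between 585 and 1191, and the highest mean is 1626 at 48 hours.

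Stmn1 and nuclei were compared at 24 hours by array. Array 2, with the higher Stmn1 signal, had 1574 ± 101 nuclei per region at 24 hours (SD, n = 3) and 953 ± 323 in control, and array 1 had 1137 ± 235 at 24 hours (n = 3) and 933 ± 218 in control. Since Stmn1 was set beside the nuclei count when it was chosen, their relation is given as a description, with no test. Over the 20 sums, which come in pairs from the same group, scaled Stmn1 and nuclei per region had a Pearson correlation of 0.457 and a Spearman correlation of 0.462. Without the 2 sums farthest from the median of nuclei these were 0.418 and 0.404. On array 1 they were 0.296 and 0.479, and on array 2 0.624 and 0.588 (n = 10 each), and the difference between arrays was not tested. Without the 24-hour sums, a choice made after the data had been seen, they were 0.488 and 0.482. Among regions as deviations from the mean of their group on their array they were 0.236 and 0.231 (n = 55).

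**Figure D5:**
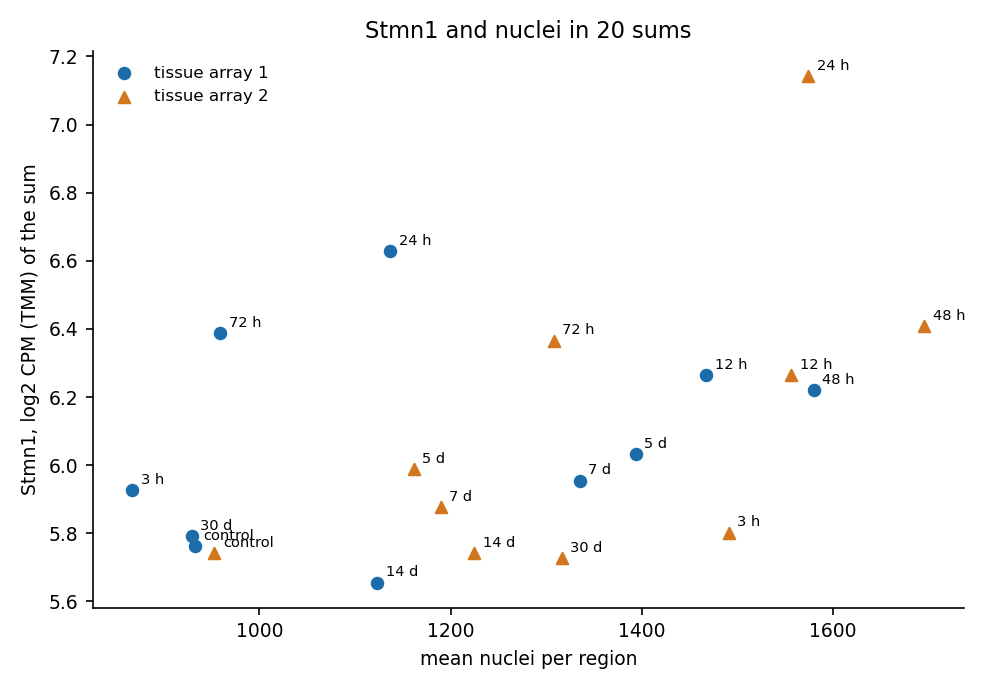
Stmn1 (log2 CPM after TMM) against nuclei per region for the 20 sums of group and array, each labelled by its group. The 24-hour sums are the highest in Stmn1 and the 48-hour sums lie among the highest in nuclei, and the overall Pearson correlation is 0.457.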

How the data were processed

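Regions of mouse pancreas were profiled with GeoMx and grouped by the time point in their labels. Deduplicated barcode counts came from GeoMx NGS Pipeline 2.3.3.10, per the file headers. The authors deposited expected counts per target, in which 3 targets have fractional values, and the same table as a Q3-normalised signal, with each region scaled by 1 factor to the same 75th percentile. The deposited region table gives reads and nuclei as counts, sequencing saturation in percent (94.6 to 96.3), a limit of quantitation as a signal, and area and position as a score in µm units. The submitters' processing notes name mm10 and limma, with no role stated there.

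The members and gene lists were chosen with earlier results of these data known. Fractional values were rounded, and the counts of regions of one group on one array were added, since regions are not tied to animals. The 2688 targets tested exceeded 2 times the mean of the negative probes in 3 or more of the 57 regions. Sums were fitted with edgeR 4.0.16 in R 4.3.3 (TMM, quasi-likelihood, 9 residual degrees of freedom, common dispersion 0.0122), and calls were made at 0.05 after Benjamini-Hochberg adjustment over all tested targets. With 1 or 2 sums per group, p-values measure only the spread between sums pooled over groups. DESeq2 1.42.0, other scalings, filters and units were tried as alternatives. The fit was tested on simulated data. Correlations of Stmn1 with nuclei are given without the permutation p-values that were planned, since the pair was chosen together. CPM in the plot of sums are log2 with a prior count of 2.

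Named genes are Stmn1 and its family, the 10 targets most correlated with it, from each list the 4 called genes (3 for histones) that differed most and in 1 direction on both arrays, and Mki67, Top2a, Pcna, Mcm2 to Mcm7 and Cdk1. The genes Tuba1b and Tubb5 are outside this rule and were chosen after their values were seen. Depth was 36264864 to 167668771 raw reads and 1526575 to 6998005 deduplicated reads per region. Region numbers in the titles do not pair regions: deviations from group means correlated on average by -0.01 between regions of 1 number and by 0.00 between others. The test result of 1 neural and glial list member is not reported here.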

Additional observations from a re-analysis of the deposited data

Results flagged for a closer look

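Of 27 sets of 4 to 7 regions examined for a single distant value, 4 had one, where chance gives about 1 in 20. The Stmn1 ratio to the negative probes was 1.55 in replicate 1 at 7 days on array 1, against at most 1.34 in the other regions of that time. The nuclei count was 1275 in replicate 1 at 12 hours on array 1, where the next lowest region had 1514. It was 1167 in replicate 1 at 48 hours on array 1, where the next lowest had 1649. It was 1371 in replicate 7 at 14 days on array 2, where the next highest had 1196.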

How the results depend on the processing

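Stmn1 remained above control from 12 hours to 7 days in every alternative tried, while the size of its log2 difference depended on scaling and background. With total counts it was 0.51, 1.09, 1.78, 1.01, 1.05, 0.54, 0.41 and 0.084 at 3, 12, 24, 48 and 72 hours and 5, 7 and 14 days, and the last of these has the other sign than the -0.05 reported. With scaling to the negative probes it was 0.31, 0.93, 1.63 and 0.75 at 3, 12, 24 and 72 hours. Relative to the median of all targets, the 24-hour value was 1.19 under both scalings. With the background subtracted it was 0.94, 2.05, 3.07, 2.18, 2.301, 1.34 and 0.96 from 3 hours to 7 days. Without a filter it was 0.73 and 1.39 at 12 and 24 hours, with the limit of quantitation as filter 0.71 and 1.38, and from Q3-normalised values 0.22, 0.71 and 1.32 at 3, 12 and 24 hours. Leaving out single sums gave 0.0080 to 0.22 at 3 hours and 0.91 to 1.40 at 24 hours, where the arrays alone gave 0.87 and 1.40.

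The number of the 8 division genes called higher was 3, 5, 6, 7 and 7 at 3, 12, 24, 48 and 72 hours with total counts, where 1273, 1962, 2047, 1995 and 1499 of the 2688 targets were. It was 4 and 6 at 12 and 24 hours with the negative probes, where 1603 and 1724 targets were. At 12 hours it was 1 with background subtracted, 3 without a filter, 3 with the limit of quantitation and 1 over 57 regions. At 24 hours it was 0 with the 75th percentile, 0 without the array term and 0 to 0 without single sums. Between 48 and 12 hours, against 1 reported, it was 0 with total counts, negative-probe scaling, background subtracted, no filter, the limit of quantitation and no array term, 2 with the 75th percentile and DESeq2, 3 over 57 regions and 0 to 1 without single sums. The cause of these changes was not tested.

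With the replicate number as a block over 57 regions, Stmn1 differed from control by 0.20, 0.54, 1.22, 0.58, 0.71, 0.28, 0.19, -0.05 and 0.01 from 3 hours to 30 days. The block gave 1 division gene at 24 hours and 0 at the other times, and 3 between 48 and 12 hours. The numbers do not pair the regions.

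Nuclei on array 1 alone differed from control by -66 at 3 hours and 26 at 72 hours, each from a single region, which at 72 hours was the larger one. Leaving out single regions gave differences of 349.6 to 492 at 24 hours, 186 to 367 at 72 hours and 166 to 267 at 14 days. The correlation of Stmn1 and nuclei was 0.418 without the 2 farthest sums, 0.296 on array 1 and 0.431 with Q3-normalised values, and 6 of the 10 most similar targets were shared with the ranking over 57 regions. At the depth of these regions the levels near the negative probes limit what can be detected for most division genes.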
